A study of Mus musculus with 6 samples.

Results

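A set of genes with known roles in fetal growth was followed through lung development in single cells: Lin28b, Igf2bp1, Igf2bp2, Igf2bp3, Hmga2, H19, Dlk1, Meg3, Peg3 and Cdkn1c. They were chosen by name, with earlier results of these data known. All 10 of them were listed in each of the 6 count matrices, among 31053 genes, and all 10 had at least 1 UMI (unique molecular identifier, a tag that marks 1 captured RNA molecule). Their levels were read in endothelial cells (ECs) and mesenchymal cells at 4 ages, and in 4 classes of cells of whole lungs at E18.5.

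Mouse lung cells were captured in 6 droplet libraries, 1 library for each condition, so no comparison between conditions has a replicate and no test between them was possible. In 4 libraries, from lungs at 3 embryonic ages (E13.5, then E15.5, then E18.5) and 1 age after birth (postnatal day 8, P8), cells had been sorted for the DsRed reporter of the chemokine gene Cxcl12, and each carried the genotype Cxcl12DsRed/+. The gate also asked for the endothelial protein CD31 and left out cells with EpCAM or CD45, and mesenchyme-enriched cells without CD31 were collected too. The reporter sits in the first exon of Cxcl12, so these animals have 1 working copy of that gene, and the lungs of several animals were mixed for a library. The other 2 libraries were whole lungs at E18.5, one labelled Cxcl12DsRed/DsRed (homozygous null) and the other labelled Cxcl12DsRed/+ (heterozygous control). The strain and sex of the animals are not given in the labels.

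A cell was called endothelial with at least 2 UMIs of Pecam1 and Cdh5 together and at most 2 of the collagen genes Col1a1 and Col3a1, and mesenchymal with at least 5 UMIs of the collagen genes and 0 of Pecam1 and Cdh5. From E13.5 to P8 the sorted libraries held 161, 8891, 9024 and 8219 ECs. They held 11122, 1798, 232 and 59 mesenchymal cells, which were 87.4% of the cells kept at E13.5 and 0.698% at P8. The library labelled null held 2697 ECs and 4299 mesenchymal cells, and the library labelled control held 1736 and 3818. Levels are given as CPM, the UMIs of a gene summed over a class per 1e+06 UMIs of that class. Intervals are exact 95% Poisson or binomial intervals, and they cover counting error only. Since the assay reads transcript ends, a level is compared only with other levels of the same gene.

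The 10 genes belong to a fetal growth programme with linked parts. LIN28B is an RNA-binding protein that blocks maturation of the let-7 microRNAs, and let-7 in turn represses messages that carry sites for it, among them Lin28b itself, the Igf2bp messages and Hmga2. H19, Dlk1, Meg3, Peg3 and Cdkn1c are imprinted, expressed from the copy of 1 parent only, and lie in imprinted domains that control growth of the fetus and placenta. Many of these genes are known to be switched off in most tissues after birth.

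Because let-7 links several of these genes, the RefSeq let-7 sequences and the matches to their seed are shown here. Mature microRNAs were not measured. In the mouse sequences, 10 family members shared the seed GAGGUAG (bases 2 to 8, in capitals), of which the following are examples, beside the pair of microRNAs that lie within H19, whose seeds differ.
mmu-let-7a-5p: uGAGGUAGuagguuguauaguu
mmu-let-7g-5p: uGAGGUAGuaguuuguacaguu
mmu-miR-98-5p: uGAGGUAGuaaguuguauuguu
mmu-miR-675-5p: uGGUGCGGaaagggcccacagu
mmu-miR-675-3p: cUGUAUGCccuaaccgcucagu

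For each gene the coding transcript with the longest stretch after its stop codon was taken (GENCODE, GRCm38/mm10). The complement of that seed, CTACCTC, was searched in this stretch on the transcribed strand. It occurred 4 times in Lin28b, 4 times in Igf2bp1, 4 times in Hmga2, and once each in Igf2bp2, Igf2bp3 and Peg3. None was found in Dlk1 or Cdkn1c. Of 20999 protein-coding genes searched, 9.03% held a match and 1.08% held 2 or more. Among genes of like length after the stop codon the share with a match was 24.4% for Lin28b, 34.4% for Igf2bp1, 16.1% for Hmga2, 12.1% for Igf2bp2, 13.3% for Igf2bp3 and 19.4% for Peg3. For each gene the match nearest to its stop codon follows, with the match in capitals. A match is a run of letters only, and binding was not measured.
Lin28b chr10:45381022-45381044 minus strand: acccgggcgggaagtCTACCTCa
Igf2bp1 chr11:95961778-95961800 minus strand: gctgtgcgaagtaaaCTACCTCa
Igf2bp2 chr16:22059473-22059495 minus strand: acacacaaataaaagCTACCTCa
Igf2bp3 chr6:49086787-49086809 minus strand: tgcatttttactcaaCTACCTCa
Hmga2 chr10:120364224-120364246 minus strand: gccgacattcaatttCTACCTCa
Peg3 chr7:6706883-6706905 minus strand: ggagtgttctgtcccCTACCTCt

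The imprinted genes lie in known pairs and clusters. H19 (chr7:142575529-142578143, minus strand, a noncoding RNA) lies near Igf2, and Cdkn1c (chr7:143458339-143461050, minus strand) lies further along the same chromosome. Dlk1 (chr12:109452823-109463336) and the noncoding Meg3 (chr12:109541001-109571726) are neighbours on the plus strand. Exons of Igf2bp3 share 1529 bases with Malsu1 on the opposite strand, exons of Meg3 share 1228 bases with Gm26906, and exons of Cdkn1c share 625 of their 2039 bases with the antisense gene Gm44732. Whether reads were counted by strand is not given in the sources used here, so reads in these shared stretches may belong to either gene.

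The libraries held between 63746333 and 117522172 UMIs over all barcodes. After filtering they held between 7448 and 12726 cells, with between 62759319 and 113451339 UMIs. All 6 endothelial markers fixed for the class were above 0 in the ECs of every library. There were 161 ECs at E13.5, and in them a list of 8 mesenchymal markers, all 8 above 0, summed to 133 CPM, which was 4.08% of its level in the mesenchymal cells of that library against 0.0942% to 1.01% in the other 5 libraries. Other marker lists moved with age in the sorted ECs as well: 6 epithelial markers summed to 19.5, 23.0, 489 and 393 CPM from E13.5 to P8, and 6 erythroid markers to 22.1, 556, 1238 and 919 CPM. In the whole-lung ECs these lists summed to 483 and 1274 CPM and to 623 and 1054 CPM. A list of 5 immune markers summed to 24.8, 40.8, 52.6 and 62.7 CPM in the sorted ECs from E13.5 to P8. In the whole-lung ECs it summed to 352 CPM (labelled null) and 623 CPM (labelled control). The part of such RNA in the EC levels was not tested. The whole-lung labels went against the targeted gene. Cxcl12 in ECs was 534 CPM in the library labelled null and 4.44 CPM in the library labelled control, and in the sorted ECs it was between 748 and 1227 CPM. Names of the deposited files also give the opposite genotypes, so these libraries are called by their labels only and no direction by genotype is drawn. Libraries shared between 20 and 54 cell barcodes a pair, and the whole lungs shared 140, or 1.58% of the smaller.

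In ECs the RNA-binding genes and Hmga2 were highest at E13.5 or E15.5 and lowest at P8. Igf2bp1, which binds and stabilises growth-related messages, was at 69.0, 41.8, 21.3 and 0.196 CPM from E13.5 to P8. In the E18.5 ECs of the whole lungs it was at 20.7 CPM in both, so 3 libraries of that age lay within 1.03-fold of each other. The log2 ratio of E15.5 over E13.5 was -0.72, and it was 0.03 when cells were both classed and counted after thinning to 2000 UMIs. The P8 level was 352-fold lower than at E13.5 (95% interval 190 to 710) and 109-fold lower than at E18.5 (62.0 to 211). With cells thinned to 2000 UMIs, the share of ECs with an Igf2bp1 UMI was 8.81%, 7.86%, 4.35% and 0.0249% over the same ages (without thinning 34.8%, 31.0%, 12.1% and 0.146%). In immune cells of the whole lungs the thinned shares were 3.97% in the library labelled null and 1.97% in the library labelled control, where ECs had 3.92% and 4.21%. Immune cells were set beside ECs for free RNA, but whether they express Igf2bp1 themselves was not tested.

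Igf2bp2, a paralogue known for its part in metabolism as well as growth, was at 38.0, 20.6, 6.97 and 0.801 CPM in ECs at the 4 ages. The whole-lung ECs gave 4.67 CPM (labelled null) and 6.83 CPM (labelled control), all between the E15.5 and P8 values. Its P8 level was 47.5-fold lower than at E13.5 (30.8 to 73.0). Igf2bp3, the third member of the family and a marker of fetal tissue and many tumours, went from 44.2, 35.8 and 34.1 CPM before birth to 12.4 CPM at P8. The whole-lung ECs gave 40.2 CPM (labelled null) and 43.1 CPM (labelled control), both above the E15.5 value, so the order of E15.5 and E18.5 differed between libraries. P8 was 3.55-fold lower than at E13.5 (2.61 to 4.73).

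Hmga2, a chromatin protein of dividing fetal cells, was at 69.0, 30.9, 9.76 and 0.261 CPM in ECs. Each age lay under the one before, and the P8 level was 264-fold lower than at E13.5 (153 to 484). The whole lungs differed from each other, with 8.00 CPM in ECs of the library labelled null and 3.42 CPM in the library labelled control, so the highest of the 3 E18.5 libraries was 2.86-fold over the lowest. Both were still above P8 and under E15.5.

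Lin28b was rare in every class and never reached the 10 CPM asked of a gene before a fold was counted. In ECs it had 2 UMIs at E13.5 (1.77 CPM, interval 0.214 to 6.39), 343 UMIs at E15.5 (3.92 CPM), then 41 UMIs in the sorted E18.5 library (0.698 CPM) and, at P8, 0 of 61189761 UMIs, where 3 UMIs would be 0.0490 CPM. The E18.5 level was 5.61-fold lower than at E15.5 (4.05 to 7.96), and P8 was at least 14.2-fold lower than E18.5. At E13.5 its level could not be told from that at E15.5, since 2 UMIs give a ratio of 2.22 with an interval of 0.609 to 18.4.

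**Figure D1:**
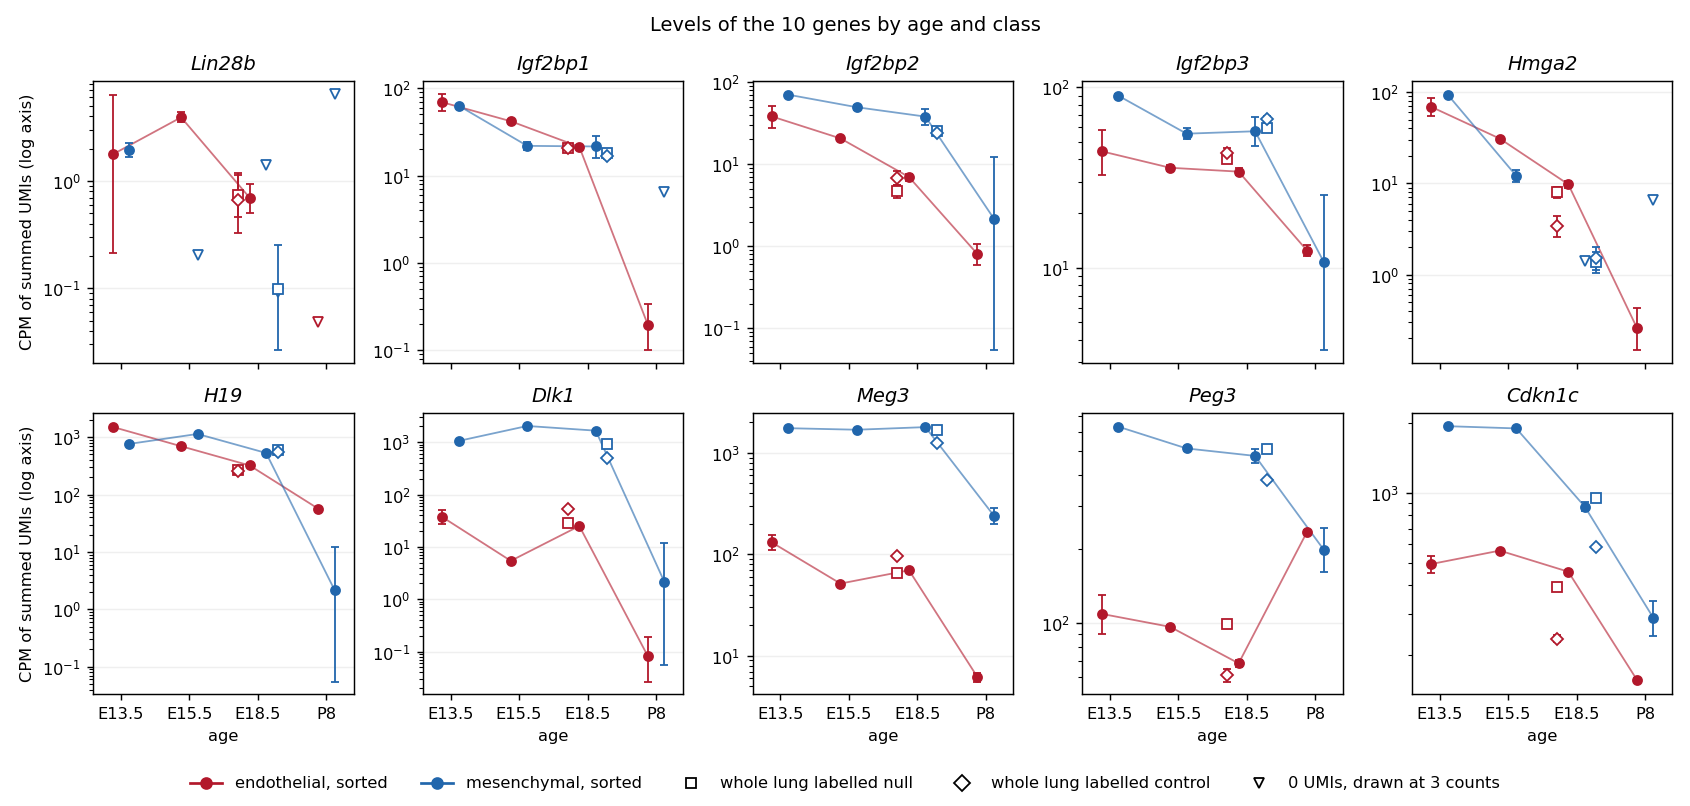
Levels of the 10 genes in CPM of summed UMIs (log axis) by age, with endothelial cells in red and mesenchymal cells in blue. Filled circles are sorted libraries, open squares and diamonds are the whole lungs labelled null and control, bars are exact 95% Poisson intervals, and open triangles mark 0 UMIs drawn at the level of 3 counts. Igf2bp1 in ECs runs from 69.0 CPM at E13.5 to 0.196 CPM at P8, while Peg3 in ECs is highest at P8 with 235 CPM.

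H19, an imprinted noncoding RNA that restrains fetal growth, was lower in ECs at each later age. It was at 1513, 696, 322 and 56.8 CPM in ECs from E13.5 to P8. The whole lungs gave 270 and 259 CPM, close to the sorted E18.5 library. P8 was 26.6-fold lower than E13.5 (25.1 to 28.2), and the thinned share of ECs with a UMI went from 83.6% to 55.0%, 23.9% and 6.86% (98.1%, 84.0%, 36.8% and 13.9% without thinning). The thinned share in immune cells of the whole lungs was 3.33% and 1.43%, and those cells were deeper before thinning, with medians of 14761 and 14661 UMIs against 5654 in the sorted E18.5 and P8 ECs. The sorted libraries themselves held between 2 and 14 immune cells, too few for such a share, so their own free RNA was not measured. At E13.5 the EC level was 198% of that in mesenchymal cells of the same library, beside 4.08% for the mesenchymal markers, and the part of mesenchymal RNA in the EC value was not tested.

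Cdkn1c, which encodes the cell cycle inhibitor p57, was at 493, 563 and 457 CPM in ECs before birth and at 157 CPM at P8. The whole-lung ECs held 394 and 236 CPM, the latter nearer to P8 than the sorted library was. P8 was 3.14-fold lower than E13.5 (2.88 to 3.42) and 2.91-fold lower than the sorted E18.5 library (2.84 to 2.98). Of P8 ECs, 19.3% had a Cdkn1c UMI after thinning (40.3% without), and of immune cells of the whole lungs 0.952% and 1.43% (13.9% and 6.63% without). Free RNA in the P8 library itself was not measured.

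Meg3, a noncoding RNA of the Dlk1 domain, was at 131, 51.5, 69.7 and 6.16 CPM in ECs, and at 65.7 and 96.2 CPM in the whole-lung ECs. All 3 E18.5 libraries lay above P8, which was 21.2-fold lower than E13.5 (17.4 to 25.8). At E13.5 Meg3 in ECs was 7.47% of its mesenchymal level, beside the 4.08% of the mesenchymal markers, and the part of such RNA in the E13.5 value was not tested. The order of E15.5 and E18.5 turned under 3 alternatives, from a log2 ratio of 0.44 to -0.50 after thinning, -0.18 with the mean of CPM per cell and -0.05 in cells with no cycling UMI. Its UMIs were not spread evenly: 26.4% of those of sorted E18.5 ECs lay in the 29 ECs, of 9024, that also had 2 or more UMIs of immune (Ptprc and Laptm5) or epithelial (Epcam and Cdh1) genes. Without such cells the level was 51.4 CPM at E15.5, 51.9 CPM in the sorted E18.5 library, 45.2 CPM in the library labelled null and 43.2 CPM in the library labelled control.

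Dlk1, a membrane ligand related to those of the Notch pathway, was at 37.1, 5.40, 25.0 and 0.0817 CPM in ECs, with 29.0 and 52.0 CPM in the whole lungs. The high E18.5 values came from few cells. In the sorted library 3 cells held at least 50% of its 1470 UMIs, and 81.2% of them lay in the 29 ECs with immune or epithelial UMIs, and without these cells Dlk1 was at 4.75 CPM, against 5.42 CPM at E15.5 treated likewise. The whole lungs gave 13.9 and 16.1 CPM without such cells. At E13.5 Dlk1 in ECs was 3.52% of its mesenchymal level, close to the 4.08% of the mesenchymal markers. At E15.5 it was 0.265%, beside 0.313% for the markers. The part of mesenchymal RNA in these EC values, and in the difference between them, was not tested. The difference between E18.5 and E15.5 in ECs turned direction when such cells were left out, from a ratio of 4.63 to a log2 ratio of -0.19. At P8 there were 5 Dlk1 UMIs in 8219 ECs, 454-fold lower than E13.5 (180 to 1472).

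Peg3 went the other way in ECs. This imprinted zinc finger gene was at 109, 96.3, 68.3 and 235 CPM from E13.5 to P8, and at 98.9 and 61.2 CPM in the whole-lung ECs, so the P8 library was above the other 5. The P8 level was 3.44-fold that of the sorted E18.5 library (3.33 to 3.57) and 2.16-fold that of E13.5 (1.81 to 2.61). Without thinning 48.3% of P8 ECs had a Peg3 UMI, and the thinned shares of ECs were 23.9%, 14.7%, 10.1% and 26.9% over the 4 ages. In immune cells of the whole lungs the thinned shares were 1.43% (labelled null) and 0.179% (labelled control). The thinned shares of E13.5 and P8 ECs lay close together, and 4 of the alternative settings put P8 less than 2-fold over E13.5, with the lowest log2 ratio at 0.45. In the same ECs the mesenchymal markers summed to 12.1 CPM at P8, their lowest value in any library. At E13.5 Peg3 in ECs was 17.2% of its mesenchymal level, beside 4.08% for the mesenchymal markers. The part of mesenchymal RNA in the EC values of Peg3 was not tested.

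Mesenchymal cells carried higher levels of Dlk1, Meg3, Peg3 and Cdkn1c than ECs in the same libraries at each age, except for Peg3 at P8, where the intervals of 160 to 244 CPM in mesenchymal cells and 232 to 239 CPM in ECs overlapped, and Dlk1 at P8, where the mesenchymal value rested on 1 UMI. The 59 mesenchymal cells at P8 held 462309 UMIs, so 1 UMI was 2.16 CPM, and every mesenchymal P8 level is coarse. Cxcl12, the gene of the sort, was at 257, 190, 256 and 47.6 CPM in sorted mesenchymal cells from E13.5 to P8. Whether the P8 cells are mesenchymal cells of the same kind as at the earlier ages was not tested. Dlk1 in mesenchymal cells was at 1056, 2040 and 1659 CPM over the embryonic ages and at 2.16 CPM (1 UMI, interval 0.0548 to 12.1) at P8. The whole lungs gave 941 and 497 CPM, so the 3 E18.5 libraries spanned 3.34-fold, yet all lay far above the P8 interval. The sorted E18.5 value rests on few cells, since 11 of the 232 held at least 50% of the Dlk1 UMIs. P8 was 488-fold lower than E13.5, with an interval of 87.7 to 19291.

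Meg3 was nearly level in mesenchymal cells before birth, at 1751, 1691 and 1795 CPM, and was at 240 CPM at P8, 7.29-fold under E13.5 (6.05 to 8.86). The whole lungs held 1685 and 1240 CPM. Cdkn1c was at 1930, 1888, 871 and 290 CPM, with the step from E15.5 to E18.5 at 2.17-fold (2.07 to 2.27), where 11 of the 232 E18.5 cells held at least 50% of the UMIs, and P8 at 6.66-fold under E13.5 (5.62 to 7.95). Peg3, opposite to its course in ECs, was at 631, 514, 479 and 199 CPM, 3.17-fold lower at P8 than at E13.5 (2.59 to 3.94). Meg3, Peg3 and Cdkn1c were the members that P8 mesenchymal cells still showed with more than 5 UMIs, between 92 and 134 each. These too rest on few of the 59 cells: at least 50% of the UMIs lay in 5 cells for Meg3, 10 for Peg3 and 7 for Cdkn1c.

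H19 in mesenchymal cells was highest at E15.5, at 763, 1139 and 531 CPM before birth (13 of the 232 E18.5 cells held at least 50% of its UMIs), and had 1 UMI at P8 (2.16 CPM), 353-fold lower than E13.5 with an interval of 63.3 to 13934. Hmga2 left mesenchymal cells earlier than ECs: it began at 93.8 CPM and was at 12.1 CPM by E15.5, and the sorted E18.5 cells had 0 of 2138110 UMIs, where 3 UMIs would be 1.40 CPM. In the whole lungs its mesenchymal level was 1.37 and 1.51 CPM, under the 8.00 and 3.42 CPM of ECs there. At E15.5 the mesenchymal level of Hmga2 was 7.76-fold lower than at E13.5 (6.68 to 9.06), and the EC level 2.23-fold lower (1.76 to 2.79).

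Of the RNA-binding genes, Igf2bp1 was at 63.0, 21.9 and 21.5 CPM in mesenchymal cells before birth and had 0 UMIs at P8, at least 9.71-fold under E13.5. Igf2bp2 was at 70.0, 49.3 and 37.9 CPM and at 2.16 CPM (1 UMI) at P8, 32.4-fold under E13.5 with an interval of 5.81 to 1279. Igf2bp3 was at 90.0, 55.3, 57.1 and 10.8 CPM, 8.32-fold lower at P8 (3.56 to 25.6). Lin28b had 178 UMIs at E13.5 (1.96 CPM) and 0 in the sorted mesenchymal cells of the later ages, where 3 UMIs would be 0.206, 1.40 and 6.49 CPM in order of age. Its mesenchymal level at E15.5 was thus at least 9.51-fold lower than at E13.5, while at P8 the interval reached to 7.98 CPM, above the E13.5 level.

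Counted together, 8 of the 10 genes were at least 2-fold lower in ECs at P8 than at E13.5, where 11.5% of the 8789 genes above the filter were, and Peg3 was the 1 gene at least 2-fold higher, where 17.5% of genes were. Lin28b was under the filter. In mesenchymal cells 9 of the 10 were at least 2-fold lower, where 13.3% of genes were, and none was higher, where 19.4% were. The filter asked for 10 CPM at either age, and 5 of the genes in each class passed it by their E13.5 level alone and so had to differ. Those above the filter at P8 as well were Igf2bp3, H19, Peg3 and Cdkn1c in ECs, with log2 ratios of -1.83, -4.73, 1.11 and -1.65, and Igf2bp3, Meg3, Peg3 and Cdkn1c in mesenchymal cells, with -3.06, -2.87, -1.67 and -2.74. The median of all genes was 0.09 in ECs and 0.08 in mesenchymal cells. Because the genes were chosen with earlier results of these data known, their counts are not independent of that choice. The shares of all genes beside them are thus no test of the set.

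**Figure D2:**
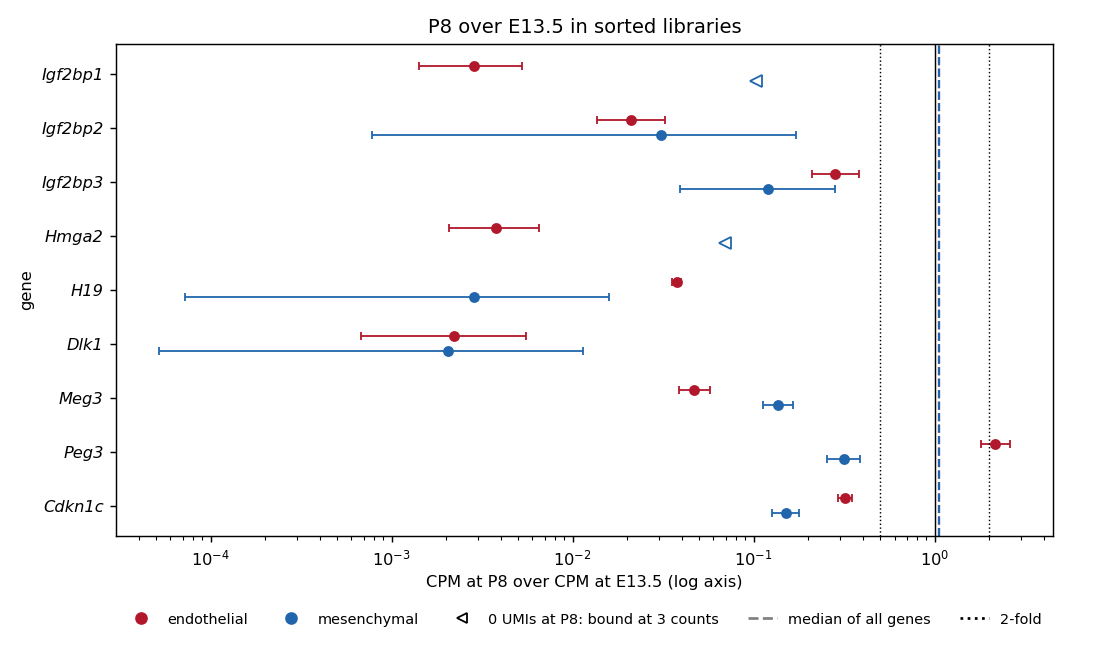
Ratio of the level at P8 to that at E13.5 (log axis) for the 9 genes over the filter, with exact 95% binomial intervals as bars. Open triangles are bounds where P8 held 0 UMIs, dotted lines mark 2-fold and dashed lines the median of all genes, which lies near 1. Peg3 in ECs is the 1 point to the right of 1.

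The steps between ages were unequal. From E13.5 to E15.5, 4 members were at least 2-fold lower in ECs (Hmga2, H19, Dlk1 and Meg3), where 3.98% of genes were, and none higher, where 3.53% were. Dlk1 passed the filter by its E13.5 level alone and so could only be lower, and the part of mesenchymal RNA in its difference was not tested. The H19 value, a log2 ratio of -1.12, was -0.81 after thinning and -0.81 in cells with no cycling UMI, both under 2-fold, and Igf2bp2 passed 2-fold under stricter class limits (-1.44) and with the mean of CPM per cell (-1.03). From E15.5 to E18.5 there were 3 (Igf2bp2, Hmga2 and H19), where 4.80% were, and 1 at least 2-fold higher (Dlk1), where 9.68% were. Igf2bp2 and Hmga2 passed the filter by their E15.5 level alone and Dlk1 by its E18.5 level alone, so the direction of these 3 was fixed by the filter. From E18.5 to P8 there were 6 of the 7 above the filter, where 4.31% of genes were, and Peg3 was at least 2-fold higher, where 4.39% were. Of the 6, Igf2bp1, Dlk1 and Meg3 passed the filter by their E18.5 level alone and so had to be lower. In mesenchymal cells the counts lower were 2 (4.72% of genes), 3 (3.62%) and 8 (9.51%) over the same steps, and none was higher at any step, where 7.12%, 8.46% and 10.8% of genes were. In the last of these steps Igf2bp1, Igf2bp2, H19 and Dlk1 passed the filter by their E18.5 level alone, and in the step before it Hmga2 passed by its E15.5 level alone. Igf2bp1, Igf2bp2, Igf2bp3, Hmga2 and H19 were lower at every step in ECs, where 10.0% of genes were, but after thinning the first step of Igf2bp1 became 0.03 and the second step of Igf2bp3 went from -0.07 to 0.0040 (log2). Igf2bp3 was also higher in both whole-lung E18.5 libraries than at E15.5. Igf2bp1, Igf2bp2, Peg3 and Cdkn1c were in mesenchymal cells, where 9.81% were. There too single steps were small and turned under alternatives: that of Igf2bp1 from E15.5 to E18.5, at -0.02 (log2), under 4 of them (0.75 after thinning), that of Cdkn1c from E13.5 to E15.5, at -0.03, under 2, and that of Peg3 from E15.5 to E18.5, at -0.10, under stricter class limits.

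With 3 libraries at E18.5, the step to P8 could be set against the spread between libraries of 1 age. P8 was at least 2-fold under each of the 3 in ECs for Igf2bp1, Igf2bp3, H19, Dlk1 and Meg3 (5 of 7, where 3.83% of genes were, with Igf2bp3 and H19 the ones above the filter at P8 too), and in mesenchymal cells for 7 of 8, all but Peg3, where 5.26% of genes were, with Igf2bp3, Meg3 and Cdkn1c the ones above the filter at P8 too. E15.5 was at least 2-fold over each of the 3 in ECs for Igf2bp2, Hmga2 and H19, where 1.85% of genes were, and in mesenchymal cells for Hmga2, where 2.31% were. Of these, H19 was above the filter at E18.5 as well, and Igf2bp2 and Hmga2 passed by their E15.5 level alone and could only be lower at E18.5. Highest over lowest of the 3 libraries was 1.19-fold for the median gene in ECs and 1.28-fold in mesenchymal cells. These libraries differ in sort, in labelled genotype and in version of the counting software, so their spread is not that of replicates.

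Within ECs, H19 and Cdkn1c varied with markers of vessel type. In the sorted E18.5 library ECs with at least 2 UMIs of Gja4 and Gja5, connexin genes of arterial endothelium, held 424 CPM of H19, and ECs with at least 2 UMIs of the capillary gene Gpihbp1 and 0 of Gja4 and Gja5 held 62.2 CPM, a ratio of 6.82 (6.26 to 7.45). The ratio was 4.01 at E15.5 (833 against 208 CPM), 10.4 in the library labelled null (467 against 44.8 CPM), 10.0 in the library labelled control (624 against 62.4 CPM) and 1.35 at P8 (57.5 against 42.5 CPM, interval 1.15 to 1.60). H19 was thus higher in the Gja4 and Gja5 group in all 5 libraries that had both groups, and least so at P8.

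Cdkn1c followed the same order, at 620 against 88.2 CPM in the sorted E18.5 library, a ratio of 7.03 (6.54 to 7.56). The ratios were 3.50 at E15.5, 5.63 and 3.91 in the libraries labelled null and control, and 3.84 at P8 (177 against 46.1 CPM). Hmga2 was also higher in the Gja4 and Gja5 group at E18.5, at 12.9 against 1.84 CPM in the sorted library, and Igf2bp2 was at 8.65 against 2.65 CPM. In that library Igf2bp1 was at 22.4 against 18.5 CPM and Igf2bp3 at 34.1 against 34.4 CPM. Igf2bp3 was lower in the Gja4 and Gja5 group at E15.5 (ratio 0.789, 0.706 to 0.884) and at P8 (11.7 against 19.7 CPM, ratio 0.597, 0.469 to 0.770), with ratios of 1.10 and 0.996 in the libraries labelled null and control. Peg3 was lower in the Gja4 and Gja5 group in each of the 5 libraries, with ratios between 0.588 and 0.790. At least 2-fold higher in this group were H19, Meg3 and Cdkn1c at E15.5 (6.74% of genes were), and Hmga2, H19 and Cdkn1c in the sorted E18.5 library (5.02% of genes were). Hmga2 passed the filter there, and in the library labelled null, by its level in the Gja4 and Gja5 group alone and could only be higher in it. The count was 1 at P8 (Cdkn1c, where 1.49% of genes were), 3 in the library labelled null (4.06%) and 2 in the library labelled control (3.19%). The share of ECs in the Gja4 and Gja5 group was 76.7% in the E15.5 library, 66.1% in the sorted E18.5 library, 78.0% in the P8 library, and 49.9% and 30.0% in the whole lungs labelled null and control. Of these 5 libraries P8 had the highest share and the lowest class levels of H19 and Cdkn1c, and the part of the share in the class levels was not tested.

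At E18.5 the sorted library had 111 ECs with at least 3 UMIs of the lymphatic genes Prox1 and Ccl21a, and H19 there was at 2810 CPM, against 322 CPM over all ECs of the library. Igf2bp3 was also higher there, at 64.0 against 34.1 CPM, while Cdkn1c was at 181 against 457 CPM and Igf2bp1 at 12.4 against 21.3 CPM. Cycling ECs were those with at least 2 UMIs of Mki67 and Top2a. In the sorted libraries they held less Cdkn1c than ECs with 0 at E15.5, E18.5 and P8. They held less H19 at E15.5 and E18.5 only, and the part of vessel type in these differences was not tested. Cdkn1c was at 283 against 728 CPM at E15.5 (2.57-fold lower, 2.51 to 2.63), at 145 against 497 CPM at E18.5, and at 64.1 against 168 CPM at P8. H19 was at 373 against 896 CPM at E15.5 and 200 against 339 CPM at E18.5, but at 71.1 against 55.2 CPM at P8, where cycling cells were higher. Of the sorted ECs, 20.5%, 22.9%, 6.42% and 5.75% were cycling from E13.5 to P8, and of the whole-lung ECs at E18.5, 14.8% (labelled null) and 13.8% (labelled control) were.

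**Figure D3:**
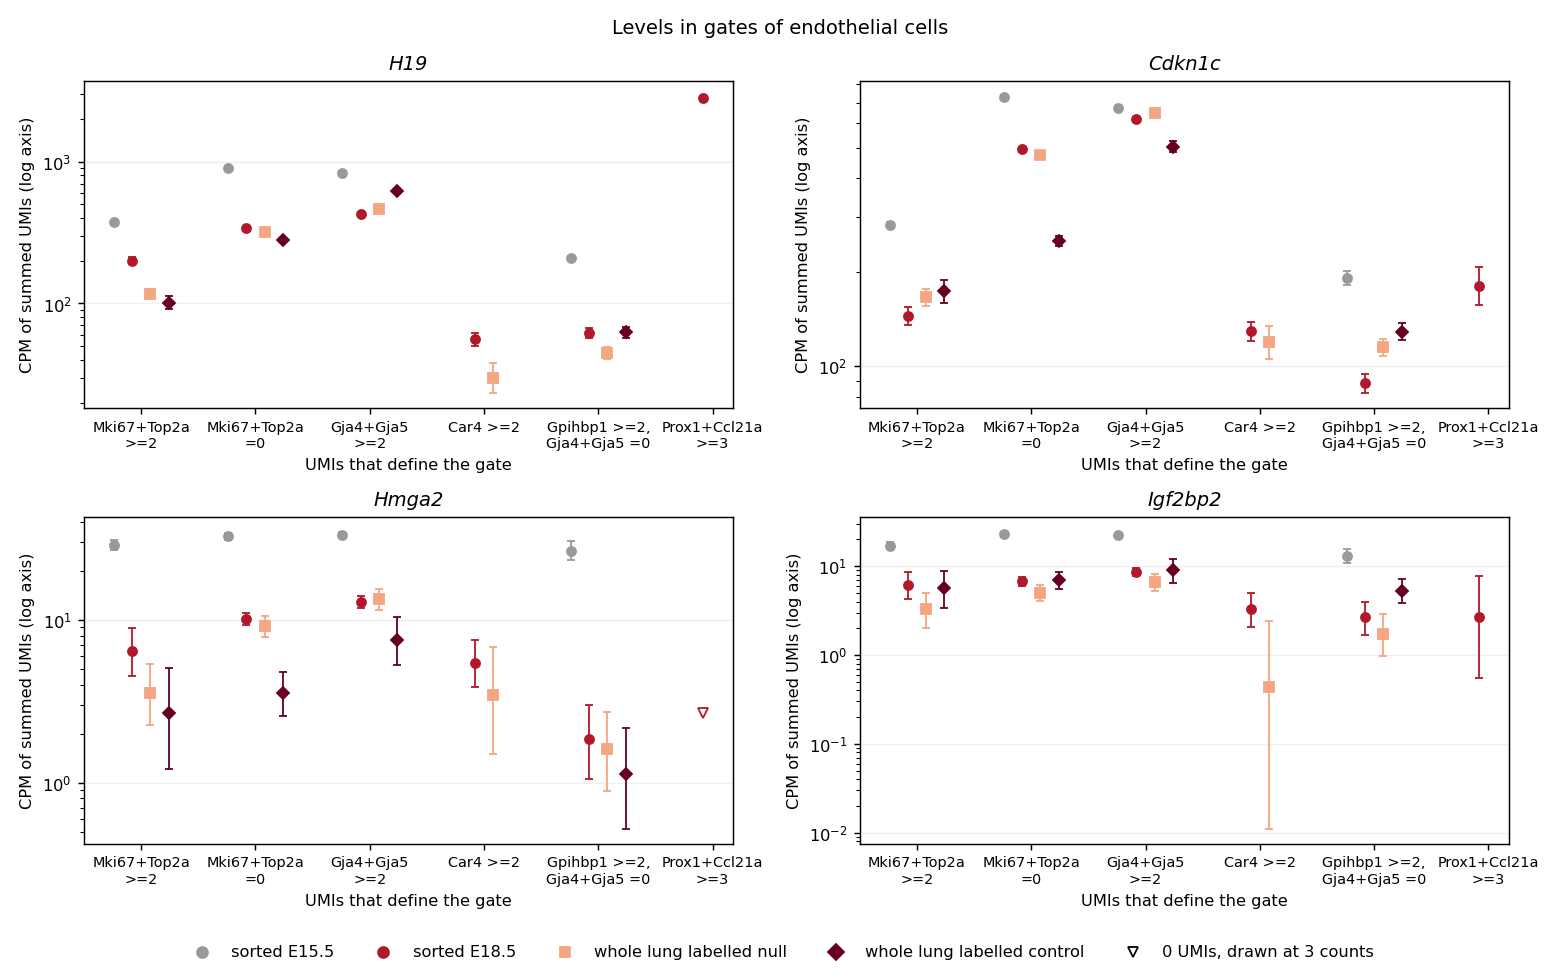
Levels in CPM of summed UMIs (log axis) of H19, Cdkn1c, Hmga2 and Igf2bp2 in groups of ECs set by the UMIs named on the x axis, in the sorted E15.5 and E18.5 libraries and in the whole lungs labelled null and control. Bars are exact 95% Poisson intervals and the open triangle marks 0 UMIs drawn at 3 counts. H19 in the sorted E18.5 library is at 424 CPM with Gja4 and Gja5, 62.2 CPM with Gpihbp1 and 2810 CPM with Prox1 and Ccl21a.

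In mesenchymal cells at E15.5 Dlk1 and Meg3 were split by smooth muscle genes. Cells with at least 10 UMIs of Acta2 and Tagln held 420 CPM of Dlk1 at E15.5, and mesenchymal cells outside the smooth muscle, pericyte and mesothelial groups held 5091 CPM, 12.1-fold more (11.7 to 12.5). The difference was 2.07-fold at E13.5 (614 against 1271 CPM) and 7.70-fold in the sorted E18.5 library (451 against 3472 CPM). It was 1.47-fold in the library labelled null (694 against 1022 CPM), and in the library labelled control the order was turned, with 551 against 321 CPM. Meg3 was at 789 against 3399 CPM at E15.5, 4.31-fold lower, and Cdkn1c 4.25-fold lower. Meg3 was under 2-fold apart at E13.5 and in both whole lungs. Igf2bp1, Igf2bp2 and Igf2bp3 had ratios between 0.666 and 1.02 in each of the 5 libraries that had both groups. At E15.5, Dlk1, Meg3, Peg3 and Cdkn1c were at least 2-fold lower in the Acta2 and Tagln group, where 6.02% of genes were. The count was 1 at E13.5 (Dlk1, where 2.62% of genes were), 5 in the sorted E18.5 library (11.2%) and 0 in the libraries labelled null (2.69%) and control (2.84%). In the library labelled control H19 was at least 2-fold higher in the Acta2 and Tagln group, at 815 against 372 CPM (ratio 2.19), where 3.92% of genes were. Over the embryonic ages that group made up 25.9%, 61.5% and 52.2% of sorted mesenchymal cells, and it was 44.5% and 34.2% in the whole lungs labelled null and control, so the sorted mesenchymal class changed in makeup with age, and its part in the levels above was not tested.

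Whole lungs allowed the 4 classes to be set side by side at 1 age, with 405 and 567 epithelial and 635 and 558 immune cells in the libraries labelled null and control. Scaling by median-of-ratios size factors in place of total UMIs moved the median gene by 0.26 to 0.39 (log2) towards epithelial and immune cells. Some differences were smaller than the shift of the same comparison. Between ECs and epithelial cells these were Igf2bp3 in both libraries, and Igf2bp1 and H19 in the library labelled control. Between mesenchymal and epithelial cells they were Igf2bp1, Meg3 and Cdkn1c in both. Between ECs and immune cells it was Igf2bp2 in the library labelled control. Immune cells, which stood as the class for background RNA though their own expression was not tested, were lowest for the imprinted genes. Dlk1 was highest in epithelial cells, at 1874 CPM (labelled null) and 1794 CPM (labelled control), then mesenchymal cells at 941 and 497 CPM, ECs at 29.0 and 52.0 CPM and immune cells at 9.64 and 3.78 CPM. Epithelial over mesenchymal was 1.99-fold in the library labelled null and 3.61-fold in the library labelled control. Meg3 was at 1735 and 1449 CPM in epithelial and 1685 and 1240 CPM in mesenchymal cells, and at 65.7 and 96.2 CPM in ECs and 13.2 and 17.5 CPM in immune cells. The epithelial marker list summed to 1078 and 1911 CPM in mesenchymal cells and to 483 and 1274 CPM in ECs of these libraries, with all 6 markers above 0, and its part in these levels was not tested.

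Peg3 and H19 were highest in mesenchymal cells. Peg3 was at 513 and 382 CPM there, 98.9 and 61.2 CPM in ECs, 35.4 and 38.9 CPM in epithelial cells and 5.33 and 2.60 CPM in immune cells. H19 was at 596 and 553 CPM in mesenchymal cells, 270 and 259 CPM in ECs, 150 and 288 CPM in epithelial cells and 19.5 and 9.33 CPM in immune cells, and the order of ECs and epithelial cells was not the same in both libraries. Cdkn1c was at 951 and 583 CPM in mesenchymal cells and 745 and 621 CPM in epithelial cells, whose order also turned between libraries, and at 394 and 236 CPM in ECs and 10.4 and 5.31 CPM in immune cells. Thinned to 2000 UMIs, 46.3% to 54.4% of mesenchymal cells had a Peg3 UMI and 0.179% to 1.43% of immune cells did (80.4% to 87.2% and 3.05% to 6.93% without thinning).

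The RNA-binding genes did not share that order. Igf2bp3 was high in immune cells, at 80.2 and 64.7 CPM, against 59.3 and 66.7 CPM in mesenchymal cells, 40.2 and 43.1 CPM in ECs and 31.0 and 37.9 CPM in epithelial cells. In the library labelled control immune and mesenchymal cells did not differ beyond their counting intervals. Igf2bp1 was at 20.7 CPM in ECs of both libraries, 18.1 and 16.8 CPM in mesenchymal cells, 15.4 and 18.6 CPM in epithelial cells and 13.7 and 11.7 CPM in immune cells. Igf2bp2 was highest in epithelial cells, at 35.2 and 40.7 CPM, then mesenchymal cells at 25.0 and 23.6 CPM, with ECs at 4.67 and 6.83 CPM and immune cells at 5.95 and 5.78 CPM within their intervals of each other in both libraries. Hmga2 was also highest in epithelial cells, at 12.3 and 12.6 CPM, then ECs at 8.00 and 3.42 CPM, and was at 1.37 and 1.51 CPM in mesenchymal cells and 1.44 and 1.53 CPM in immune cells. Lin28b was at 0.744 and 0.659 CPM in ECs, with 4 UMIs in mesenchymal cells of the library labelled null, 2 UMIs in immune cells of the library labelled control, and 0 UMIs in the other classes, where 3 UMIs would be at most 0.380 CPM.

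In both whole lungs Igf2bp2, H19, Dlk1, Meg3, Peg3 and Cdkn1c were at least 2-fold higher in mesenchymal cells than in ECs, 6 of the 8 above the filter, where 13.5% of genes were. Epithelial cells were at least 2-fold over ECs for Igf2bp2, Dlk1 and Meg3 (16.1% of genes were), and at least 2-fold over mesenchymal cells for Hmga2 (14.6% of genes were) and under them for Peg3 (19.9% of genes were). Immune cells were at least 2-fold under ECs for H19, Dlk1, Meg3, Peg3 and Cdkn1c, where 19.7% of genes were. Some of these passed the filter by the higher class alone, so their direction was fixed by it: Igf2bp2 over ECs and Hmga2 over mesenchymal cells in both libraries, Dlk1 and Peg3 in immune cells in both, and H19 and Cdkn1c in immune cells in the library labelled control.

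**Figure D4:**
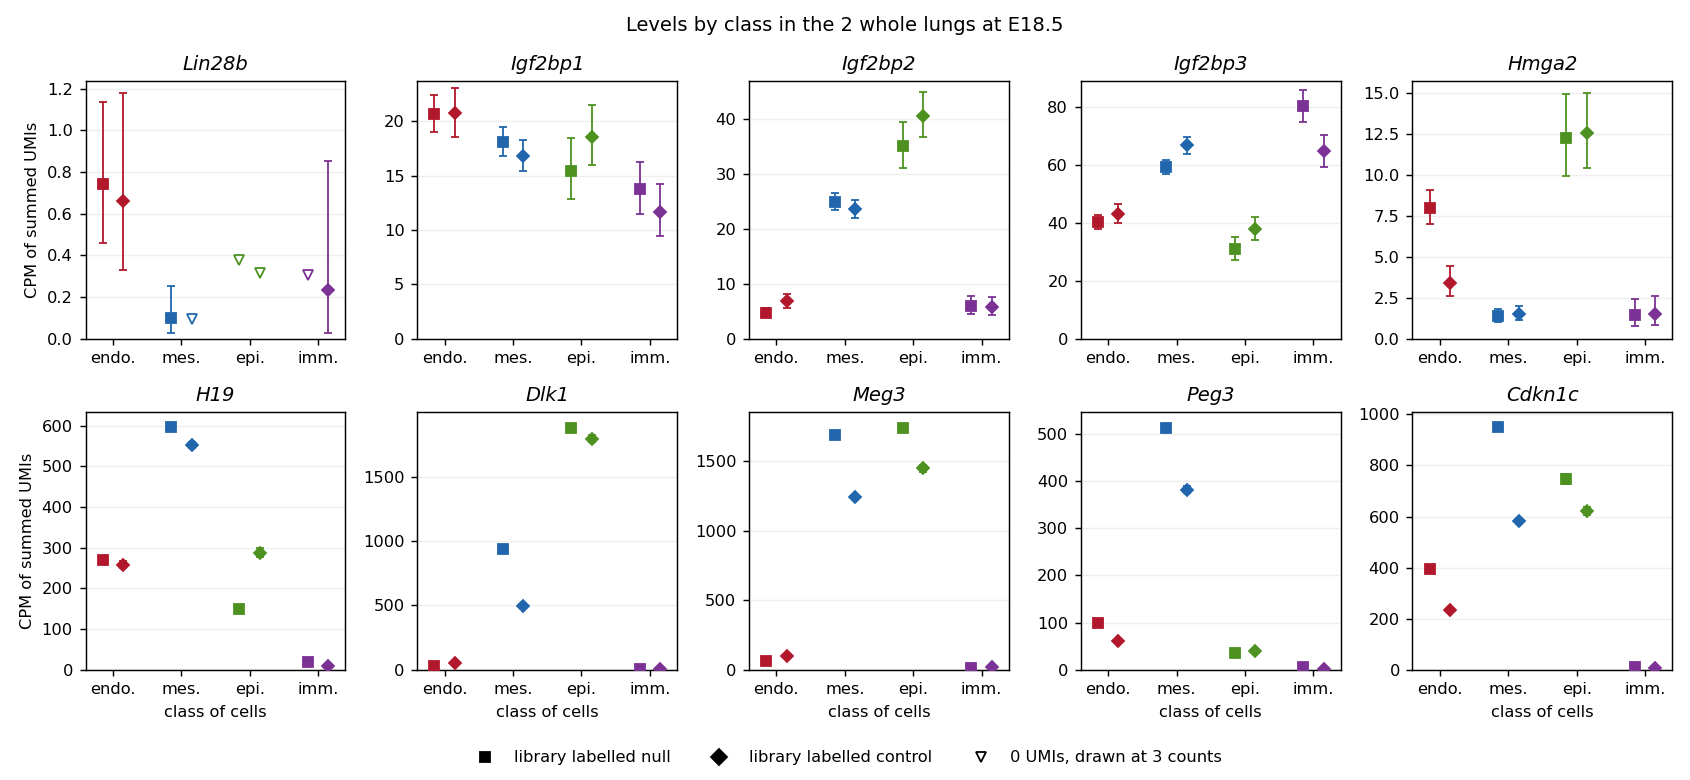
Levels of the 10 genes in CPM of summed UMIs in endothelial, mesenchymal, epithelial and immune cells of the E18.5 whole lungs, squares for the library labelled null and diamonds for the library labelled control. Bars are exact 95% Poisson intervals, and open triangles mark 0 UMIs drawn at 3 counts. Each panel has its own scale. Dlk1 is highest in epithelial cells at 1874 and 1794 CPM, and Igf2bp3 in immune cells of the library labelled null at 80.2 CPM.

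Between the libraries labelled null and control, none of the 7 members above the filter was 2-fold apart in ECs, none of 8 in mesenchymal cells and none of 9 in epithelial cells. Of all genes, 0.860% were at least 2-fold lower and 0.337% higher in ECs, 0.612% and 0.726% in mesenchymal cells, and 0.144% and 0.433% in epithelial cells. In immune cells H19 alone of the 5 above the filter was 2-fold apart, at 19.5 against 9.33 CPM (ratio 2.09, 1.60 to 2.75), where 1.31% of genes were higher and 0.267% lower. It passed the filter by the library labelled null alone and could only be higher there. Its log2 ratio of 1.06 was 0.95 with no filter on cells, 0.99 with median-of-ratios size factors and -0.30 after thinning. Under the filter, Hmga2 in ECs had a ratio of 2.34 (1.74 to 3.19). Ratios in ECs were 0.997 for Igf2bp1 (0.871 to 1.14), 0.932 for Igf2bp3, 1.04 for H19, 1.62 for Peg3, 1.67 for Cdkn1c and 0.557 for Dlk1, which rested on few cells. Meg3 in ECs had a log2 ratio of -0.55, which was 0.07 without the ECs that had immune or epithelial UMIs. In mesenchymal cells the ratio was 1.89 for Dlk1, 1.63 for Cdkn1c, 1.36 for Meg3, 1.34 for Peg3 and 1.08 for H19 and Igf2bp1. In epithelial cells H19 was at 150 against 288 CPM, a ratio of 0.519 (0.485 to 0.556). There was 1 library for each label, so these are differences between libraries.

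Other genes of the same pathways were read from fixed lists, which were also chosen with earlier results of these data known. Of 25 other imprinted genes, 14 were above the filter in ECs, 7 of which were at least 2-fold lower at P8 than at E13.5, where 11.5% of all genes were, and 2 higher, where 17.5% were, with a median log2 ratio of -1.18. In mesenchymal cells 20 were above it, 12 lower (13.3% of all genes) and 1 higher (19.4%), with a median of -1.39. Of those lower, 4 in ECs (Nnat, Plagl1, Igf2 and Asb4) and 6 in mesenchymal cells passed the filter by their E13.5 level alone and could only be lower, and they are in these medians. The largest differences in ECs were Nnat, a neuronal membrane protein gene, from 42.4 to 0.948 CPM, 44.8-fold lower (29.9 to 66.8), the growth-restraining zinc finger gene Plagl1, from 149 to 7.71 CPM, 19.3-fold lower, and the growth factor gene Igf2, from 17.7 to 1.14 CPM, 15.5-fold lower. Exons of Igf2 share 3596 bases with Gm49394 on the same strand, so its counts are uncertain. Zdbf2 had the highest ratio of the list in ECs, from 10.6 to 27.4 CPM (ratio 2.58, 1.47 to 5.01).

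In mesenchymal cells Mest, a gene of fetal mesoderm, went from 448 to 32.4 CPM, 13.8-fold lower (8.37 to 24.7). Zdbf2 and Usp29 were 12.4-fold (2.22 to 489) and 11.3-fold (2.03 to 447) lower, each with 1 UMI at P8. Sgce, which encodes a sarcoglycan, was higher at P8, at 112 against 38.3 CPM (ratio 2.94, 2.19 to 3.86). Zdbf2 was thus higher at P8 in ECs and lower in mesenchymal cells, and Usp29, the neighbour of Peg3, was at 8.91 CPM in P8 ECs against 3.54 CPM (4 UMIs) at E13.5, a ratio of 2.52 with an interval of 0.978 to 9.28.

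Of the 18 let-7 pathway genes and targets listed, 15 were above the filter in ECs. At P8 3 of them were at least 2-fold lower, where 11.5% of genes were, and 3 higher, where 17.5% were, with a median log2 ratio of 0.18. In mesenchymal cells 12 were above it, 2 lower (13.3% of genes) and none higher (19.4% of genes), with a median of -0.14. Hmga1 and Myc in ECs, and both genes lower in mesenchymal cells, passed the filter by their E13.5 level alone, and Mycn in ECs by its P8 level alone, so their directions were fixed by the filter. In ECs Hmga1, the relative of Hmga2, was at 13.3 CPM at E13.5 and 0.360 CPM at P8, 36.9-fold lower (17.8 to 74.4), the growth regulator Myc was 2.65-fold lower (1.53 to 4.31), and Arid3a, a DNA-binding factor, was 2.49-fold lower (1.78 to 3.41). Mycn, a relative of Myc, was higher at P8, at 14.4 CPM against 1 UMI at E13.5 (ratio 16.3, 2.93 to 646). In mesenchymal cells Plag1, an activator of Igf2, was 6.05-fold lower with 1 UMI at P8 (1.08 to 239), and Dis3l2, the nuclease that degrades let-7 precursors, was 3.23-fold lower with 2 UMIs (0.893 to 26.7).

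**Figure D5:**
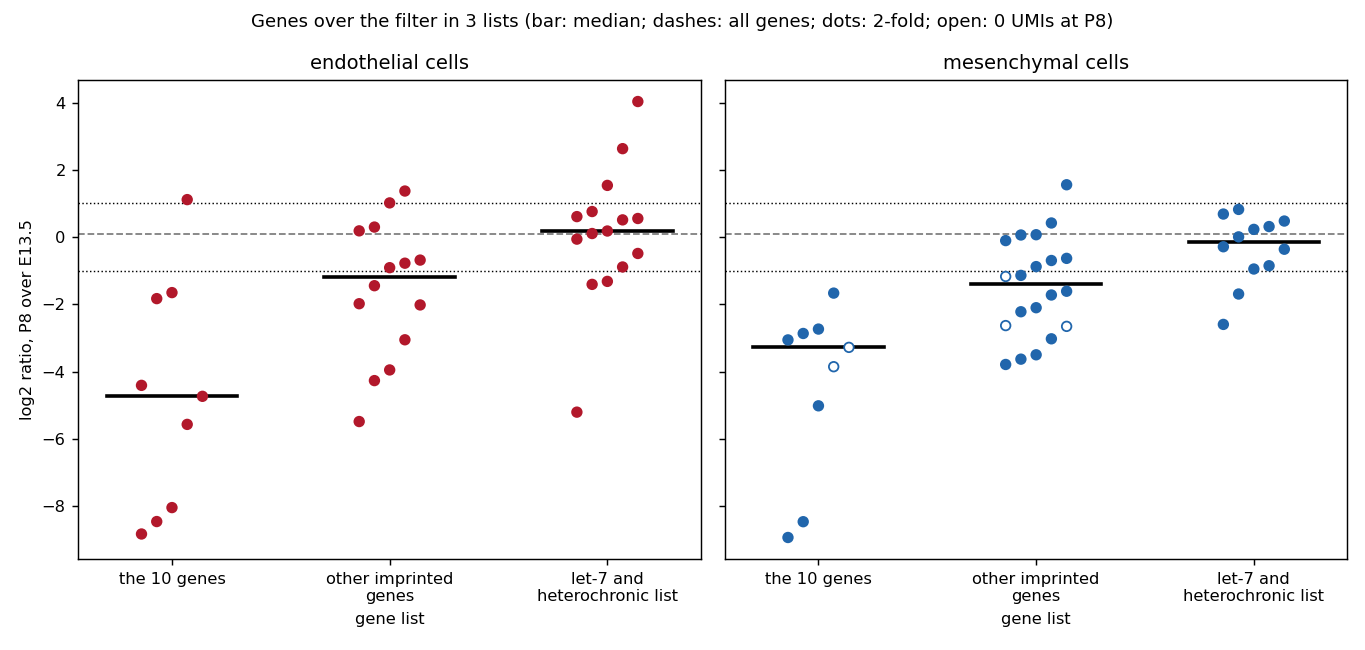
Log2 ratio of P8 over E13.5 for the genes above the filter in 3 lists, in endothelial (left) and mesenchymal cells (right). Each point is a gene, open points had 0 UMIs at P8, the bar is the median of the list, dashes are the median of all genes and dots mark 2-fold. The medians in ECs are -4.73 for the 9 of the 10 genes that passed the filter (5 of them by their E13.5 level alone), -1.18 for the other imprinted genes and 0.18 for the let-7 list.

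Across the 16 sums of a class in a library, which share libraries and depth, the gene most like each member in log2 CPM among 5880 searched was Serbp1 for Lin28b (Pearson r = 0.917), Ddb1 for Igf2bp1 (0.908), Naca for Igf2bp2 (0.921), Asnsd1 for Igf2bp3 (0.845), Atp5d for Hmga2 (0.894) and Aimp1 for H19 (0.894). Foxp2 was the most like gene for both Dlk1 (0.931) and Meg3 (0.973), the pair that lies side by side on chromosome 12. Gpx7 was closest to Peg3 (0.964) and Tmem9 to Cdkn1c (0.978). These values describe the 16 sums and carry no test.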

How the data were processed

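Single-cell suspensions of mouse lung were captured by the authors with 10x Genomics droplets. The authors aligned reads to mm10 with Cell Ranger (3.1 per the labels, with 3.1.0 or 3.0.2 in the file headers) and deposited UMI counts per gene and cell, which were used here. Version 3.1.0 stood in the headers of the sorted E13.5 library and both whole lungs, and 3.0.2 in those of the sorted E15.5, E18.5 and P8 libraries. Ratios of sorted libraries to E13.5 thus cross versions, and the part of version in them was not tested. For the whole lungs they also deposited expected counts, estimated counts adjusted for free RNA with SoupX, used for the cell filter of those libraries and as an alternative. Seurat 3.2.2 is named in the submitters' processing notes.

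The filter on cells followed that stated by the study: a mitochondrial share between 0.5% and 10% and no fewer than 700 genes detected. Classes were set by UMIs of marker genes: epithelial cells needed at least 2 UMIs of Epcam and Cdh1 and immune cells at least 2 of Ptprc and Laptm5, each with at most 1 of the other marker pairs and at most 4 of the collagen genes. UMIs were summed per class and library and given as CPM. A ratio had an exact conditional binomial interval, a level an exact Poisson interval and a share of cells a Clopper-Pearson interval, all at 95%. Genes of at least 10 CPM in 1 of the 2 groups were counted when past 2-fold, and a count of 0 was set to 3 counts for a bound. Classes under 50 cells gave no ratio. Doublets were kept, and removing Scrublet calls (scanpy 1.11.5) was an alternative. The automatic threshold of that caller marked under 0.5% of cells in 3 libraries, where the cells with the highest scores were taken at 0.8% per 1000 barcodes instead. The counting of ratios was tested on simulated data, drawn as independent Poisson counts per gene, which is the model behind the intervals. That simulation could thus not show how calls and intervals hold where the UMIs of a gene lie in few cells. Python 3.11.15, numpy 2.4.6, scipy 1.17.1, pandas 2.3.3 and matplotlib 3.10.9 were used.

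Sequences and coordinates were from RefSeq (GRCm38.p6) and the GENCODE annotation of GRCm38, the build of the files. Named were all 10 members, of each list the 3 genes with the largest fall and the gene with the largest rise past 2-fold between the first and last age, and for each member the gene with the highest Pearson r of log2(CPM + 1) among those of at least 50 CPM in 1 sum, leaving out members, genes of the class rules and mitochondrial, ribosomal protein and haemoglobin genes. Cxcl12 was named as the check of the labels and, in sorted mesenchymal cells, as the gene of the sort. Usp29 in ECs beside its mesenchymal value was chosen after its values were seen. The genes, lists and classes were chosen with earlier results of these data known, and ratios between groups within a class were added after their levels were seen. Rian was on the imprinted list but was not analysed here.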

Additional observations from a re-analysis of the deposited data

Results flagged for a closer look

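In 6 pairs of values a gene moved in opposite directions in a pair of cell classes under the same contrast, with counting intervals on opposite sides of 1 and at least 1 of the values past 2-fold. None of these differences was tested, since each condition has 1 library. Peg3 was higher at P8 in ECs and lower in mesenchymal cells: the ratio to E18.5 was 3.44 in ECs and 0.415 in mesenchymal cells, and the ratio to E13.5 was 2.16 and 0.315. H19 between E13.5 and E15.5 had a ratio of 0.460 in ECs and 1.49 in mesenchymal cells. Dlk1 had a ratio of 0.146 in ECs and 1.93 in mesenchymal cells over the same step, and 4.63 in ECs against 0.814 in mesenchymal cells between E15.5 and E18.5, where 3 ECs held at least 50% of its EC UMIs at E18.5. Dlk1 in ECs was 3.52% of its mesenchymal level at E13.5 and 0.265% at E15.5, beside 4.08% and 0.313% for the mesenchymal markers. The part of mesenchymal RNA in its EC ratio over that step was not tested. H19 in the library labelled null over the library labelled control was 0.519 in epithelial cells and 2.09 in immune cells. After thinning the immune log2 ratio went from 1.06 to -0.30, the same direction as in epithelial cells.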

How the results depend on the processing

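No paired analysis was possible because each condition has 1 library. Of 877 ratios of members under an alternative, 833 kept their direction and 845 kept their side of 2-fold. The count of members lower at P8 than at E13.5 in ECs, 8 of 9, was 5 of the 6 that passed a filter of 50 CPM (9.26% of all genes) and 4 of 9 for E18.5 over E13.5 with P8 left out (8.81%). The count in mesenchymal cells, 9 of 9, was 3 of 9 with P8 left out (9.28%). With E13.5 left out they were 7 of 8 (7.07%) and 8 of 9 (10.2%). Members that passed these filters by the earlier age alone could only be lower. In ECs these were Igf2bp1, Hmga2 and Meg3 at 50 CPM, and Igf2bp2 and Hmga2 with P8 left out. With E13.5 left out they were Igf2bp1, Igf2bp2, Hmga2 and Meg3. In mesenchymal cells they were Hmga2 with P8 left out, and Igf2bp1, Igf2bp2, Hmga2, H19 and Dlk1 with E13.5 left out. The alternatives that leave out an age, or use 1 whole lung only, were chosen after seeing the data. With no filter on low genes, 32.5% of all genes were at least 2-fold lower at P8 than at E13.5 in ECs, and 8.91% in mesenchymal cells. Stricter class limits and the class rule after thinning gave no mesenchymal count at P8, since fewer than 50 cells were left. The count higher in mesenchymal cells than in ECs of both whole lungs was between 5 and 6 under all settings. Between 6 and 10 members passed the filter there, and 13.2% to 17.5% of all genes were higher.

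Between the libraries labelled null and control, the count past 2-fold in ECs was 0 of 7. Under stricter class limits it was 1 of 7 (2.16% of all genes), and with no filter on low genes 1 of 10 (10.2% of all genes). With SoupX-adjusted values it was 3 of 7 (7.14% of all genes), where the log2 ratio of Peg3 went from 0.69 to 3.79. In mesenchymal cells the count was 0 of 8 (1.34% of all genes), with 1 of 8 under stricter class limits (1.59%) and 1 of 8 after thinning (2.12%). In epithelial cells it was 0 of 9 (0.578%), with 1 of 9 in cells with no cycling UMI (2.16%) and 2 of 9 with SoupX-adjusted values (10.6%). In immune cells it was 1 of 5 (1.58%), with 2 of 8 after thinning (6.05%), 2 of 5 with the mean of CPM per cell (1.53%) and 3 of 9 with no filter on low genes (8.86%). It was 0 with no filter on cells (0.993%), with median-of-ratios size factors (1.39%), with a filter of 50 CPM (0.921%) or with SoupX-adjusted values (10.4%). The log2 ratio of Dlk1 in ECs between E15.5 and E18.5 turned from 2.21 to -0.77 after thinning and to -0.19 without the ECs that had immune or epithelial UMIs, and that of H19 in immune cells turned from 1.06 to -0.30 after thinning. The mesenchymal log2 ratio of Hmga2 between E15.5 and E18.5 was -3.11 and -0.72 after thinning, where fewer UMIs set the bound. The cause of the other changes was not tested. Depth was low for the 161 ECs at E13.5 and the 59 mesenchymal cells at P8, and intervals cover counting error only.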
